A study of Mus musculus with 47 samples.

Results

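Livers of 2 inbred mouse strains fed the same high-fat, high-sugar diet were compared: 8 libraries from CAST/EiJ and 8 from C57BL/6J, 16 of the 47 libraries in the series. They were taken by their titles, which give 44% fat with fiber, the strain and the letter F or M. CAST/EiJ descends from wild-caught mice and C57BL/6J is the common laboratory strain; the labels give the genotype of both as wild type, with no treatment other than diet. Each strain contributed 4 female and 4 male libraries. The diet began at week 6 of age and liver was collected at week 15. The same strains on a control diet of 10% fat with fiber, 7 CAST/EiJ and 8 C57BL/6J libraries that share no sample with the 16, are used only to set the strain differences of the 2 diets side by side.

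The liver makes cholesterol from acetyl-CoA through mevalonate and squalene, and it makes fatty acids from the same precursor. Both routes are under SREBP transcription factors, which the escort protein SCAP carries to the Golgi for cutting when membrane sterol is low, and which INSIG proteins hold back in the endoplasmic reticulum when sterol is plentiful. SREBP-2 acts mainly on sterol genes, while SREBP-1c, ChREBP and LXR act mainly on fatty acid synthesis in response to insulin, carbohydrate and oxysterols.

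Levels are CPM, counts scaled to library size with TMM factors, so they compare 1 gene between libraries and not 1 gene with another. Triplets of CPM give the lowest, median and highest of the libraries of a strain. Differences are log2 fold changes of CAST/EiJ over C57BL/6J with sex as covariate, and a gene was called at an adjusted p under 0.05 (edgeR, quasi-likelihood; Benjamini-Hochberg over all genes tested). Whether every library came from its own animal is not stated in the labels, and p-values then cover the spread among libraries, which may be technical. Total counts ran from 32.3 M to 46.4 M per library, and Xist and the Y-linked Uty and Kdm5d matched the labelled sex in each of the 16. C57BL/6J female replicate 1 stood apart, with a correlation of 0.972 to its group against 0.989 or more elsewhere and a cell cycle sum of 157 CPM against at most 37.2 CPM in the other libraries. It and 2 others, C57BL/6J female replicate 2 and CAST/EiJ female replicate 2, held 41.4 to 82.3 CPM of Cpa1, a pancreatic acinar enzyme. Albumin, the hepatocyte's main secreted protein, lay at 27529.5, 50269 and 78399.7 CPM in CAST/EiJ, against 62074, 69269 and 80742 CPM in C57BL/6J (log2 fold change −0.56, SE 0.13, adjusted p = 0.00145), so the liver label was met in both strains. Of 10 hepatocyte markers 3 were called higher and 3 lower, near the 26.4% and 29.2% of all genes tested.

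The strains differed widely. Of 15497 genes tested, 8608 were called (55.5%), 4086 higher in CAST/EiJ (26.4%) and 4522 lower (29.2%), and the 8 libraries of 1 strain did not overlap the 8 of the other for 20.5% of genes (9.95% with CAST/EiJ higher, 10.6% with CAST/EiJ lower). Calls of at least 2-fold numbered 3080 (19.9%). Counts within gene lists are read against these shares.

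Cholesterol synthesis genes were lower in CAST/EiJ at most steps of the route. Of 22 genes tested 18 were lower and the other 4 did not pass, against 29.2% of all genes lower. In 3 of the 22 the strains did not overlap, against 20.5% of all genes. Their median log2 fold change was −1.57, against −0.025 for all genes tested, and 21 of 22 differences were negative. Summed over the 22 genes, libraries lay at 1077, 1162 and 1611 CPM in CAST/EiJ, against 1538, 2622 and 4110.1 CPM in C57BL/6J. Those sums overlapped only through C57BL/6J female replicate 1, which had the lowest C57BL/6J value of 19 of the 22 genes. Without the 3 libraries of high Cpa1, a set chosen after seeing the data, 19 genes were lower. Within the 3 runs of consecutive library identifiers, which may or may not be batches, 7, 17 and 13 of the genes were lower. The runs differ in size, and run 1 holds only replicate 1 of each strain and sex, so their counts are not comparable.

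**Figure D1:**
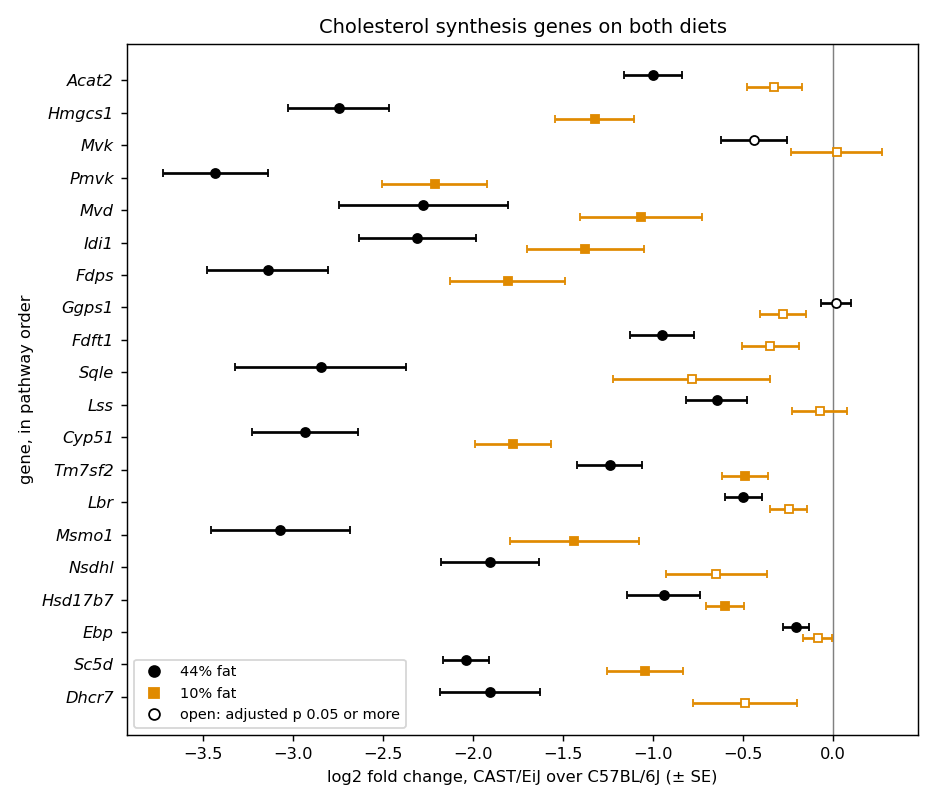
Log2 fold change of CAST/EiJ over C57BL/6J with its standard error for 20 of the 22 cholesterol synthesis genes in pathway order, on 44% fat (black circles) and on 10% fat (orange squares). Filled points passed an adjusted p of 0.05. On 44% fat 19 of the 20 points lie below 0, and Pmvk, Fdps and Msmo1 lie past −3.

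Promoter letters are shown for 4 of these genes because their list moved together. RefSeq promoters (GRCm38.p6, 250 bases before to 50 after the start, both strands searched) were at hand for 17 of the 22 genes. The CCAAT box, searched as ATTGG, was found in 16 of the 17 (94.1%), against 42.6% of the 10845 tested genes with a promoter. The sterol regulatory element TCACNCCAC was found in 1 of 17 (5.88%), against 1.5%, and the GC box GGGCGG in 88.2%, against 65.1%. The E-box CACGTG was found in 17.6%, against 11.3%. Among 13 fatty acid synthesis genes with a promoter, 69.2% held the CCAAT box. These matches describe the reference letters alone, and the CAST/EiJ genome was not used here. The 250 bases before the start site follow, 5′ to 3′, with CCAAT boxes of either strand and the sterol element of Hmgcs1 in capitals.
Hmgcs1 chr13:119690101-119690350 (+ strand): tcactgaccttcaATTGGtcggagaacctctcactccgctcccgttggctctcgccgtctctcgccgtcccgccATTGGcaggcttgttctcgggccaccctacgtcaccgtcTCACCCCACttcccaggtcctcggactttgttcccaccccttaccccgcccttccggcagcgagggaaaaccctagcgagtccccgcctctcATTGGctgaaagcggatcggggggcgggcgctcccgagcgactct
Msmo1 chr8:64733579-64733828 (- strand): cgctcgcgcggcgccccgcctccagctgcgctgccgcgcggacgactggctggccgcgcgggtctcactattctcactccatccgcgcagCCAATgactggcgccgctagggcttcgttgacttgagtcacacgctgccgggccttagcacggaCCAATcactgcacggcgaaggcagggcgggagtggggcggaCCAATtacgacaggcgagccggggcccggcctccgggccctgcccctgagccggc
Cyp51 chr5:4104698-4104947 (- strand): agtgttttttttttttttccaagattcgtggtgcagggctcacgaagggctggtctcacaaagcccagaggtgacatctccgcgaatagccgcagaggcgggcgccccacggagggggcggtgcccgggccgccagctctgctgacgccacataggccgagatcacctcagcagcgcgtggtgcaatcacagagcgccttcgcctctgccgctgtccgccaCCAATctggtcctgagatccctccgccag
Sc5d chr9:42264301-42264550 (- strand): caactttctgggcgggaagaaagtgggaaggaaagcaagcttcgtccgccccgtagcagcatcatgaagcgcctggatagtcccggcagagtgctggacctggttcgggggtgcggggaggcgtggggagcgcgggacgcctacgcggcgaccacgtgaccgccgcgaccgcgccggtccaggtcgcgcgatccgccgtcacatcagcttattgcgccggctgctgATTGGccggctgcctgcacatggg
Hmgcs1 holds 3 CCAAT boxes and the element in this stretch, Msmo1 holds 3 boxes, and Cyp51 and Sc5d hold 1 each.

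In the mevalonate arm, Hmgcs1, the HMG-CoA synthase of the pathway (ENSMUSG00000093930, chromosome 13: 119690462 to 119708086, GRCm38), lay at 32.3, 44.1 and 67 CPM in CAST/EiJ, against 94.3, 299 and 579 CPM in C57BL/6J (log2 fold change −2.75, SE 0.28, adjusted p = 7.18e-07). Every CAST/EiJ library was below every C57BL/6J library. Pmvk, phosphomevalonate kinase (ENSMUSG00000027952, chromosome 3: 89454541 to 89469013), had the lowest fold change of the list, at 1.27, 3.31 and 5.79 CPM in CAST/EiJ, against 11.6, 34 and 51.5 CPM in C57BL/6J (log2 fold change −3.43, SE 0.29, adjusted p = 1.04e-07). Its groups did not overlap either. Mevalonate kinase, Mvk, did not pass (−0.44, adjusted p = 0.0539), whereas the thiolase Acat2 (−1.0, adjusted p = 6.24e-05) and the decarboxylase Mvd (−2.27, adjusted p = 0.000828) were lower.

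Of the isoprenoid steps, those toward sterols were lower. Fdps, farnesyl diphosphate synthase, lay at 8.75, 21 and 55.8 CPM in CAST/EiJ, against 39, 174 and 352 CPM in C57BL/6J (log2 fold change −3.14, SE 0.34, adjusted p = 1.54e-06). The ranges met only where CAST/EiJ male replicate 2 passed C57BL/6J female replicate 1. Idi1, the isomerase before it, was lower (−2.31, adjusted p = 2.59e-05), while Ggps1, which leads to protein prenylation, did not pass at 0.019 (adjusted p = 0.863).

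From squalene on, Sqle, squalene epoxidase, a control point of the pathway (ENSMUSG00000022351, chromosome 15: 59315077 to 59331192), lay at 1.59, 4.54 and 33.1 CPM in CAST/EiJ, against 6.44, 42.9 and 87.1 CPM in C57BL/6J (log2 fold change −2.84, SE 0.48, adjusted p = 0.000151). The 4 CAST/EiJ females were below the 4 CAST/EiJ males, and the single CAST/EiJ library above 20 CPM was male replicate 2, which was the highest of its strain for 17 of the 22 genes. Cyp51, lanosterol demethylase, lay at 4.93, 13.2 and 37.3 CPM in CAST/EiJ, against 34.5, 116 and 185 CPM in C57BL/6J (log2 fold change −2.93, SE 0.29, adjusted p = 6.9e-07). Msmo1, which oxidizes the 4-methyl groups, lay at 2.02, 8.08 and 34.9 CPM in CAST/EiJ, against 13.3, 70.1 and 159 CPM in C57BL/6J (log2 fold change −3.07, SE 0.39, adjusted p = 9.45e-06). Both overlapped between strains only through C57BL/6J female replicate 1. Sc5d, the desaturase near the end of the route, had the smallest p of the list, at 74.5, 109 and 143 CPM in CAST/EiJ, against 277, 450.1 and 590.0 CPM in C57BL/6J (log2 fold change −2.04, SE 0.13, adjusted p = 4.21e-10), with no overlap. Nsdhl (−1.90, adjusted p = 2.76e-05), Dhcr7 (−1.90, adjusted p = 3.2e-05) and Tm7sf2 (−1.24, adjusted p = 2.2e-05), a demethylating dehydrogenase and 2 sterol reductases, were lower. So were squalene synthase Fdft1 (−0.95, adjusted p = 0.000281), Hsd17b7 (−0.94, adjusted p = 0.00101), lanosterol synthase Lss (−0.64, adjusted p = 0.00426), the sterol reductase Lbr (−0.50, adjusted p = 0.000512) and, by the least, the isomerase Ebp (−0.20, adjusted p = 0.0265). The call of Ebp was lost in 8 of 16 refits that each left out 1 library.

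Genes that sense sterol did not move as 1 group: of 13 tested, 7 were higher and 3 lower, against 26.4% of all genes higher and 29.2% lower. Insig1, whose own transcription follows SREBP activity, lay at 51.7, 119 and 173 CPM in CAST/EiJ, against 197, 375 and 562 CPM in C57BL/6J (log2 fold change −1.60, SE 0.27, adjusted p = 0.000112). Insig2, a paralog that is not under SREBP, lay at 486, 516 and 632 CPM in CAST/EiJ, against 228, 299.6 and 399 CPM in C57BL/6J (log2 fold change 0.83, SE 0.11, adjusted p = 6.44e-06). The paralogs differed in opposite directions, each with no overlap between strains. Srebf2 was lower, at 34, 36.9 and 42.8 CPM in CAST/EiJ, against 40.1, 52.7 and 64 CPM in C57BL/6J (log2 fold change −0.48, SE 0.086, adjusted p = 0.000126), with overlap. Srebf1 lay at 107, 255 and 431 CPM in CAST/EiJ, against 160.0, 214 and 332 CPM in C57BL/6J and did not pass (log2 fold change 0.12, SE 0.13, adjusted p = 0.436); its transcript counts do not separate the 1a and 1c forms. Scap did not pass (−0.17, adjusted p = 0.104). Rnf139, a ubiquitin ligase of the endoplasmic reticulum, was higher with no overlap (0.71, adjusted p = 3.68e-07). The SREBP proteases Mbtps1 (0.24, adjusted p = 0.000222) and Mbtps2 (0.28, adjusted p = 0.0292), the erlins Erlin1 (0.26, adjusted p = 0.0312) and Erlin2 (0.41, adjusted p = 7.32e-06), and Ubxn4 (0.29, adjusted p = 0.0047) were higher by small amounts. Mbtps2 lost its call in 4 and Erlin1 in 5 of the 16 refits.

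Of 17 genes of cholesterol uptake, transfer and efflux 5 were called in each direction, near the shares of all genes. Abcg8, a subunit of the transporter that moves sterol into bile (0.84, adjusted p = 6.99e-06), Abca1, which loads cholesterol onto HDL (0.67, adjusted p = 1.29e-05), the HDL receptor Scarb1 (0.42, adjusted p = 0.00131), the ubiquitin ligase Mylip (0.42, adjusted p = 0.00173) and the oxysterol receptor Nr1h3 (0.45, adjusted p = 1.38e-05) were higher. Abcg5, the other subunit of the bile transporter, did not pass, at 46.6 to 202 CPM in CAST/EiJ and 48 to 146 CPM in C57BL/6J. The lysosomal exporters Npc2 (−0.70, adjusted p = 3.2e-07) and Npc1 (−0.25, adjusted p = 0.0199) and the esterifying Soat2 (−0.50, adjusted p = 0.00113) were lower.

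Bile acid genes, through which the liver disposes of cholesterol, were called higher for 6 and lower for 4 of 23. Of all genes 26.4% were higher and 29.2% lower. Cyp7a1, the rate-limiting enzyme of bile acid synthesis, lay at 159, 286 and 517 CPM in CAST/EiJ, against 15.2, 69.7 and 83.8 CPM in C57BL/6J (log2 fold change 2.19, SE 0.32, adjusted p = 3.09e-05). Cyp7b1, the oxysterol hydroxylase of the alternative route, lay at 537, 1131 and 1862 CPM in CAST/EiJ, against 7.89, 68.4 and 314 CPM in C57BL/6J (log2 fold change 4.26, SE 0.38, adjusted p = 1.7e-07). Its levels differed by sex, at 537 to 675 CPM in CAST/EiJ females against 7.89 to 19.7 CPM in C57BL/6J females. In males they were 1588 to 1862 CPM in CAST/EiJ against 117 to 314 CPM in C57BL/6J. For both genes every CAST/EiJ library was above every C57BL/6J library. Abcc3, which exports conjugates to blood, lay at 15.4, 33 and 81.9 CPM in CAST/EiJ, against 187, 251 and 319.7 CPM in C57BL/6J (log2 fold change −2.88, SE 0.28, adjusted p = 5.08e-07), again with no overlap but in the other direction. The peroxisomal oxidase Acox2 was higher (0.78, adjusted p = 1.85e-07). Cyp27a1, also of the alternative route, did not pass, at 329 to 559 CPM in CAST/EiJ and 217 to 578 CPM in C57BL/6J.

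**Figure D2:**
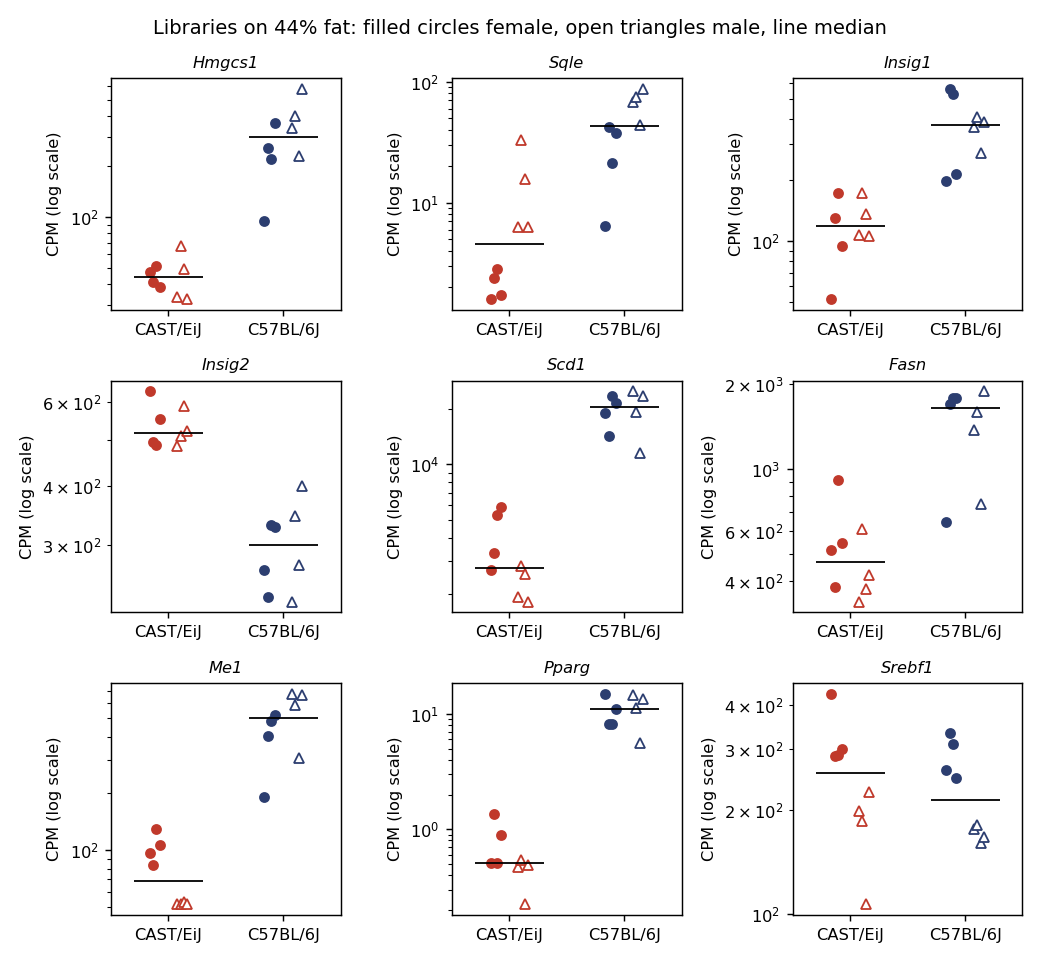
CPM on a log scale of 9 sterol and lipogenic genes in each of the 16 libraries, CAST/EiJ left and C57BL/6J right, females as filled circles and males as open triangles, with the strain's median as a line. Hmgcs1, Insig1, Insig2, Scd1, Me1 and Pparg do not overlap between strains, whereas Srebf1 overlaps fully.

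Fatty acid synthesis enzymes were lower for 10 of 14 and higher for 1, with a median of −0.79. Of all genes 29.2% were lower and 26.4% higher. Their sum lay at 1628, 1851 and 2877 CPM in CAST/EiJ, against 2178, 4739 and 5531 CPM in C57BL/6J. The sums met only where CAST/EiJ female replicate 3 passed C57BL/6J female replicate 1 and male replicate 3. Within the 3 identifier runs, which are of unequal size, 1, 9 and 4 of the genes were lower. Fasn, fatty acid synthase, lay at 337, 467 and 913 CPM in CAST/EiJ, against 648, 1643 and 1879 CPM in C57BL/6J (log2 fold change −1.51, SE 0.25, adjusted p = 8.03e-05). The 2 lowest C57BL/6J libraries fell inside the CAST/EiJ range. Acly, which makes cytosolic acetyl-CoA from citrate, lay at 118, 167 and 304 CPM in CAST/EiJ, against 228, 569 and 721 CPM in C57BL/6J (log2 fold change −1.55, SE 0.24, adjusted p = 4.09e-05). Acaca, the carboxylase that makes malonyl-CoA, lay at 159.6, 214 and 276 CPM in CAST/EiJ, against 228, 331 and 378 CPM in C57BL/6J (log2 fold change −0.51, SE 0.12, adjusted p = 0.00155). Both of these overlapped in part. Me1, malic enzyme, a source of NADPH, had the lowest fold change of the list, at 51.6, 68.6 and 129 CPM in CAST/EiJ, against 192, 503 and 674 CPM in C57BL/6J (log2 fold change −2.68, SE 0.29, adjusted p = 1.33e-06), with no overlap. The acetyl-CoA synthetase Acss2 (−1.42, adjusted p = 0.000784), the acetoacetyl-CoA synthetase Aacs (−2.21, adjusted p = 0.000187), the citrate carrier Slc25a1 (−0.65, adjusted p = 3.28e-05), the acyl-CoA synthetases Acsl3 (−1.48, adjusted p = 9.07e-07) and Acsl5 (−0.55, adjusted p = 0.000579), and G6pdx of the pentose phosphate route (−0.93, adjusted p = 0.00804) were lower. Mcat, the malonyl transferase of the separate mitochondrial pathway, was the one member higher (0.44, adjusted p = 0.000102). Acacb, Pgd and Tkt did not pass (adjusted p = 0.128, 0.24 and 0.881).

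Regulators of lipogenesis were split, 5 higher and 5 lower of 13, against 26.4% of all genes higher and 29.2% lower. Pparg, which drives lipid storage genes, lay at 0.223, 0.51 and 1.34 CPM in CAST/EiJ, against 5.63, 11.1 and 14.9 CPM in C57BL/6J (log2 fold change −4.17, SE 0.29, adjusted p = 4e-09). The strains did not overlap. Mlxipl, which encodes ChREBP, was higher at 368, 563 and 686 CPM in CAST/EiJ, against 295, 335 and 446 CPM in C57BL/6J (log2 fold change 0.58, SE 0.11, adjusted p = 0.000152), while its target Pklr was lower (−1.27, adjusted p = 0.000409). Thrsp, or Spot 14, commonly raised along with lipogenic enzymes, ran against them here at 382, 599 and 939 CPM in CAST/EiJ, against 20.6, 287 and 375 CPM in C57BL/6J (log2 fold change 1.43, SE 0.43, adjusted p = 0.0117), with no overlap. Irs2, an insulin receptor substrate (0.73, adjusted p = 0.0163), and Mlx, the partner of ChREBP (0.38, adjusted p = 2.71e-05), were higher. Usf2, an E-box factor (−0.51, adjusted p = 2.59e-05), and Mid1ip1, which activates acetyl-CoA carboxylase (−0.56, adjusted p = 0.0479), were lower. Mid1ip1 lost its call in 14 of the 16 refits.

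Of 15 desaturases and elongases 6 were lower and 2 higher, against 29.2% of all genes lower and 26.4% higher. Scd1, the stearoyl-CoA desaturase that makes monounsaturated fat (ENSMUSG00000037071, chromosome 19: 44394451 to 44407709), lay at 1803, 2746 and 5912 CPM in CAST/EiJ, against 11532, 20386 and 24802 CPM in C57BL/6J (log2 fold change −2.65, SE 0.24, adjusted p = 7.56e-08). The highest CAST/EiJ library was below the lowest C57BL/6J library. Elovl5 (−1.04, adjusted p = 3.95e-05) and Elovl2 (−0.50, adjusted p = 0.000242), which lengthen polyunsaturated chains, and the desaturases Fads1 (−0.71, adjusted p = 0.000965), Fads2 (−0.65, adjusted p = 0.0327) and Fads3 (−0.54, adjusted p = 0.0322) were lower. Fads2 and Fads3 lost their calls in 8 and 7 of the 16 refits. Hacd2 (0.46, adjusted p = 7.97e-07) and Hsd17b12 (0.59, adjusted p = 8.11e-06), which act in the elongation cycle, were higher. Elovl6, the elongase of palmitate, lay at 63.9, 91.6 and 335 CPM in CAST/EiJ, against 90.5, 172 and 256 CPM in C57BL/6J and did not pass (log2 fold change −0.57, SE 0.30, adjusted p = 0.115).

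Storage genes differed by list. Of 16 lipid droplet genes 7 were lower and 2 higher, against 29.2% of all genes lower and 26.4% higher. Of 11 triglyceride synthesis genes 3 were lower and 1 higher, with a median of −0.012, so their lower share was near that of all genes. Plin2, the main droplet coat protein of hepatocytes, lay at 125, 158 and 203 CPM in CAST/EiJ, against 399.6, 588 and 742 CPM in C57BL/6J (log2 fold change −1.78, SE 0.16, adjusted p = 3.74e-08). Plin3, Plin4 and Plin5, its relatives, were lower as well, with log2 fold changes of −0.88, −2.42 and −0.98, and none of the 4 overlapped. Fitm1, which helps lipid droplets form, had 4 counts in all 8 CAST/EiJ libraries together, 5 of them at 0, against 4194 counts in C57BL/6J (adjusted p = 5.73e-12). Pnpla3, a lipase-family protein of the droplet that follows SREBP-1c, lay at 0.396, 2.04 and 7.79 CPM in CAST/EiJ, against 2.2, 11.7 and 81.3 CPM in C57BL/6J (log2 fold change −3.13, SE 0.55, adjusted p = 0.000226), with overlap. Gpam, the first acyltransferase of triglyceride synthesis, lay at 64.2, 85.1 and 119 CPM in CAST/EiJ, against 132, 223 and 472 CPM in C57BL/6J (log2 fold change −1.55, SE 0.18, adjusted p = 1.39e-06), with none. The lipase Pnpla2 was higher (0.55, adjusted p = 0.00103). Among 34 genes of fatty acid oxidation and ketone bodies, 16 were lower and the other 18 did not pass. Acaa1b, a peroxisomal thiolase (−1.52, adjusted p = 1.46e-05), and Decr1, a dienoyl-CoA reductase (−0.83, adjusted p = 1.59e-06), were among the lower ones. Cd36, the fatty acid translocase, was lower (−1.15, adjusted p = 0.00427), in a list of uptake genes with 5 higher and 4 lower of 13.

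**Figure D3:**
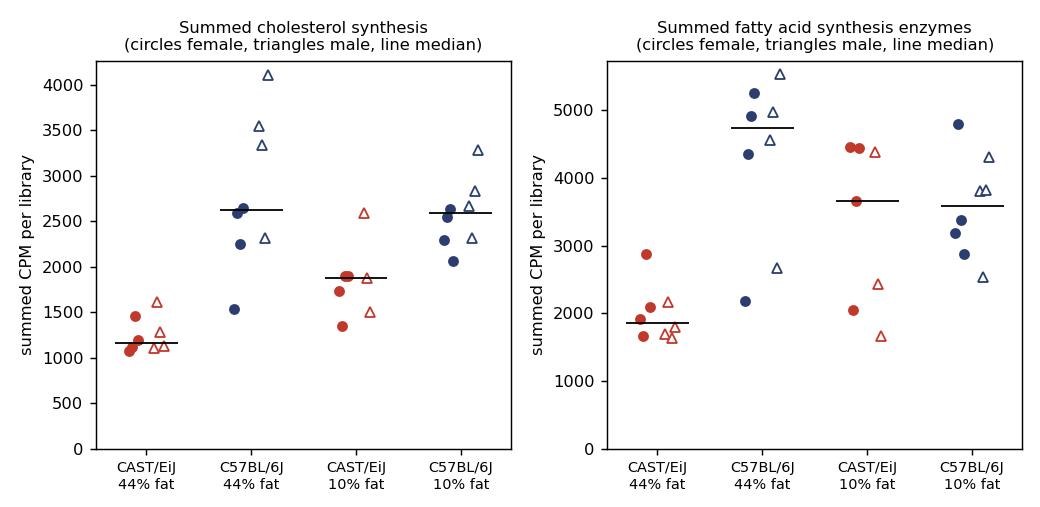
Summed CPM of the 22 cholesterol synthesis genes (left) and the 14 fatty acid synthesis genes (right) in each of 31 libraries, CAST/EiJ left of C57BL/6J on 44% fat and then on 10% fat, with the median of each group as a line. On 44% fat the CAST/EiJ medians are 1162 and 1851 CPM, against 2622 and 4739 CPM in C57BL/6J.

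The lower level of sterol genes in CAST/EiJ was also seen on the 10% fat diet. On 10% fat 8493 of 15650 genes were called (54.3%; 27.5% higher, 26.8% lower), and 98.5% of the genes called on 44% fat had the same sign on 10% fat. Cholesterol synthesis genes were lower for 10 of 22 on 10% fat, with a median of −0.54. Their sum on that diet was 1348, 1874 and 2586 CPM in CAST/EiJ, against 2061, 2589 and 3283 CPM in C57BL/6J. Fatty acid synthesis genes were higher for 3 and lower for 4 of 14 there, with a median of −0.064, and their sum was 1669, 3656 and 4461 CPM in CAST/EiJ, against 2539, 3591 and 4796 CPM in C57BL/6J. For Hmgcs1 the 10% fat values were 49.1, 89.1 and 172 CPM in CAST/EiJ, against 185, 239 and 312 CPM in C57BL/6J, a difference of −1.32 (adjusted p = 0.000131). For Sqle they were 4.46, 15.5 and 81.4 CPM in CAST/EiJ, against 19.6, 41.5 and 84.9 CPM in C57BL/6J, a difference of −0.78 (adjusted p = 0.147) that did not pass. Fasn showed 477, 1440.3 and 1981 CPM in CAST/EiJ, against 606, 1161 and 1901 CPM in C57BL/6J, a difference of 0.0038 (adjusted p = 0.994). Scd1 showed 1764, 4246 and 12654 CPM in CAST/EiJ, against 9924, 14104 and 19968 CPM in C57BL/6J, a difference of −1.34 (adjusted p = 0.00511). On 10% fat the strains did not overlap at Hmgcs1 and overlapped at the other 3 genes.

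Tested directly, the difference between diets in the strain effect was called for few genes: 7 of 16271 (0.043%; 0.0123% positive, 0.0307% negative) in a fit to all 31 libraries, 1391 at an unadjusted p under 0.05, and 56 with DESeq2. Within cholesterol synthesis edgeR called 0 of 22, with 17 at an unadjusted p under 0.05, a smallest adjusted p of 0.188, 5 called by DESeq2 and a median of −0.92. Within fatty acid synthesis edgeR called 0 of 14, with 12 at an unadjusted p under 0.05, a smallest adjusted p of 0.171, 2 called by DESeq2 and a median of −0.75. For Hmgcs1 the interaction was −1.41 (SE 0.35, adjusted p = 0.188), for Sqle −2.13 (SE 0.57, adjusted p = 0.247), for Fasn −1.46 (SE 0.44, adjusted p = 0.309), and for Scd1 −1.24 (SE 0.37, adjusted p = 0.301).

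The called interaction genes included 1 tied to sterol handling. Tmem97, an endoplasmic reticulum protein that binds NPC1, lay at 20.3, 25.2 and 36.5 CPM in CAST/EiJ, against 36, 48.2 and 78.5 CPM in C57BL/6J on 44% fat and at 33, 34.1 and 55.5 CPM in CAST/EiJ, against 34.2, 44.8 and 58.5 CPM in C57BL/6J on 10% fat, an interaction of −0.79 (SE 0.15, adjusted p = 0.0303). The ranges met at their edges on 44% fat and overlapped on 10% fat. Cyp17a1, a steroid hydroxylase, had an interaction of −1.80 (SE 0.33, adjusted p = 0.0335), Mmd2 −1.92 (SE 0.34, adjusted p = 0.0205), Tstd1 −1.32 (SE 0.21, adjusted p = 0.00424), Tceal8 −1.22 (SE 0.19, adjusted p = 0.00424) and the butyrophilin-like Btnl9 1.16 (SE 0.18, adjusted p = 0.00424). The remaining gene, Gm20775, averaged 1.79 CPM. Without the libraries of at least 20 CPM Cpa1 on either diet 1 gene was called, and Tmem97 and Cyp17a1 lost their calls in 15 and 20 of 31 single-library refits.

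**Figure D4:**
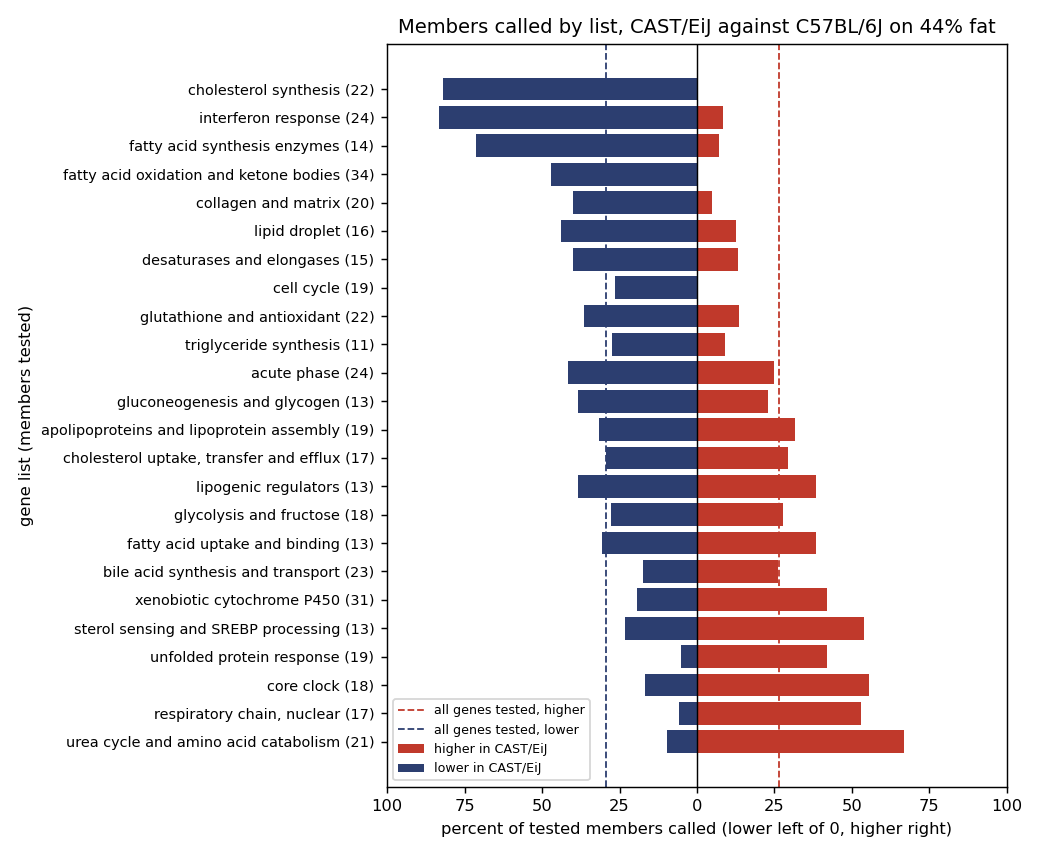
Percent of tested members called lower (left) or higher (right), for each gene list other than the cell type markers, in CAST/EiJ on 44% fat, with the number tested in brackets and the shares of all genes as dashed lines at 29.2% and 26.4%. Of the lists drawn, cholesterol synthesis, interferon response and fatty acid synthesis genes extend farthest to the left, and urea cycle and amino acid genes farthest to the right.

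Interferon response genes were lower in CAST/EiJ for 20 of 24 and higher for 2, against 29.2% of all genes lower and 26.4% higher. In 18 of the 24 the strains did not overlap, against 20.5% of all genes. Irf7, the transcription factor that amplifies the response, lay at 1.43, 2.34 and 3.66 CPM in CAST/EiJ, against 28.8, 36.1 and 44.6 CPM in C57BL/6J (log2 fold change −3.98, SE 0.12, adjusted p = 1.36e-14). Isg15 (−3.43, adjusted p = 1.59e-11), a ubiquitin-like modifier, Usp18 (−3.24, adjusted p = 8.77e-11), its protease, and Ifit3 (−2.92, adjusted p = 8.56e-12), which binds viral RNA, followed with no overlap. Iigp1, an immunity-related GTPase, held 25 counts over all CAST/EiJ libraries, against 105573 in C57BL/6J. Mx2 went the other way, at 25.5, 40.6 and 45.5 CPM in CAST/EiJ, against 4.3, 5.08 and 6.48 CPM in C57BL/6J (log2 fold change 2.85, SE 0.12, adjusted p = 1.64e-12), also with no overlap. On 10% fat 19 of 24 were lower and 1 higher, against 26.8% of all genes lower and 27.5% higher on that diet.

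Macrophage markers were lower for 12 of 15, with a median of −1.12. Of all genes 29.2% were lower and 26.4% higher. Adgre1, which encodes F4/80, lay at 3.24, 5.32 and 9.56 CPM in CAST/EiJ, against 15.8, 21.5 and 30.5 CPM in C57BL/6J (log2 fold change −1.95, SE 0.18, adjusted p = 1.19e-07), with no overlap. Vsig4 (−1.12, adjusted p = 3.44e-06), a complement receptor of Kupffer cells, and C1qa (−0.95, adjusted p = 1.21e-06) were lower as well. The whole list summed to 184 to 464 CPM in CAST/EiJ and 332 to 585 CPM in C57BL/6J. In bulk liver, fewer cells of a type and less RNA per cell cannot be told apart. T and NK cell markers were lower for 8 of 10 and higher for 1, at summed levels of 1.52 to 8.2 CPM in CAST/EiJ and 3.29 to 5.61 CPM in C57BL/6J; the higher one was Cd4 (2.08, adjusted p = 4.66e-07). The part of these cells in the interferon difference was not tested.

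Genes of nitrogen handling, respiration and the clock were mostly higher in CAST/EiJ. Of 21 urea cycle and amino acid catabolism genes 14 were higher and 2 lower, against 26.4% of all genes higher and 29.2% lower. Bckdhb, of branched-chain keto acid breakdown, lay at 131, 141 and 151 CPM in CAST/EiJ, against 38.7, 51.1 and 54.4 CPM in C57BL/6J (log2 fold change 1.52, SE 0.065, adjusted p = 2.21e-12). Slc25a15, the ornithine carrier (1.18, adjusted p = 1.1e-08), Asl, argininosuccinate lyase (1.04, adjusted p = 1.07e-06), and Cps1, which starts the urea cycle (0.78, adjusted p = 4.02e-05), were higher, and Fah of tyrosine breakdown was lower (−0.64, adjusted p = 1.32e-06). Nuclear respiratory chain genes were higher for 9 and lower for 1 of 17 by small amounts, led by Atp5b (0.48, adjusted p = 1.72e-06) and Uqcrc1 (0.45, adjusted p = 4.51e-06). Clock genes were higher for 10 and lower for 3 of 18, with Per2 at 32, 61 and 102 CPM in CAST/EiJ, against 9.22, 13.3 and 21.8 CPM in C57BL/6J (log2 fold change 2.17, SE 0.28, adjusted p = 8.86e-06). Per2 did not overlap between strains. The hour of collection is not in the labels, and its part in the clock values was not tested. Unfolded protein response genes were higher for 8 and lower for 1 of 19, including Creld2 (1.62, adjusted p = 0.000323) and Pdia6 (0.62, adjusted p = 0.000151).

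Other liver lists differed in both directions, where 26.4% of all genes were called higher and 29.2% lower. Counts of the glycolysis and fructose list and of the apolipoprotein and lipoprotein list were near those shares. Glycolysis and fructose genes were called 5 higher and 5 lower of 18, with lower Pgk1 (−0.61, adjusted p = 4e-07) and higher Pfkl (0.44, adjusted p = 1.4e-05). In gluconeogenesis and glycogen 3 were higher and 5 lower of 13, with G6pc, the glucose-releasing phosphatase, higher (1.33, adjusted p = 0.000301) and glycogen phosphorylase Pygl lower (−0.48, adjusted p = 0.000216). Xenobiotic cytochromes P450 were higher for 13 and lower for 6 of 31, with Cyp3a25 at 1830.4, 2568 and 3062 CPM in CAST/EiJ, against 222, 295 and 342 CPM in C57BL/6J (log2 fold change 3.06, SE 0.11, adjusted p = 1.55e-13) and Cyp2c38 lower (−4.73, adjusted p = 5.51e-08). The ranges of Cyp3a25 and of Cyp2c38 did not overlap. Cyp2c39, of the same subfamily as Cyp2c38, ran the other way, at 9.0 to 120 CPM in CAST/EiJ against 0.431 to 12.4 CPM in C57BL/6J. Whether reads were divided between Cyp2c38 and Cyp2c39 was not tested. Glutathione and antioxidant genes were higher for 3 and lower for 8 of 22, among them the transferase Gstt1 (−4.68, adjusted p = 5.12e-09) and Gclm (−0.83, adjusted p = 9.72e-09), a subunit of the enzyme that starts glutathione synthesis. Of 24 acute phase genes 6 were higher and 10 lower. Hamp, hepcidin, the hormone that limits iron export, held 51 counts over the CAST/EiJ libraries, 5 of them at 0, against 48481 in C57BL/6J (adjusted p = 3.26e-08). Apolipoprotein and lipoprotein genes were higher for 6 and lower for 6 of 19 (2 of the 19 share the symbol Apoc2), with Apoa5, an activator of triglyceride clearance, lower (−1.37, adjusted p = 3.64e-06), as was the phospholipid transfer protein Pltp (−2.35, adjusted p = 1.64e-05), and Apob higher (0.45, adjusted p = 0.000574). Collagen and matrix genes were lower for 8 and higher for 1 of 20, and DESeq2 called 5 lower. Col15a1 had the smallest p (−1.60, adjusted p = 4.88e-08). C57BL/6J female replicate 1 stood far above the other C57BL/6J libraries for Col3a1, at 197 CPM against 26.1 to 39.2 CPM, and for Col1a1, at 81.9 CPM against 6.43 to 10.2 CPM. Col1a1 had the lowest fold change of the list (−1.77, adjusted p = 0.0139). Without that library 7 collagen and matrix genes were lower. Cell cycle genes were lower for 5 of 19, with the other 14 not passing, in a list where C57BL/6J female replicate 1 stood apart, and 5 were lower without it. Males alone gave 8 lower cell cycle genes and females alone 0. Sinusoidal endothelial markers were higher for 3 and lower for 5 of 10, with Vwf at 1.42, adjusted p = 3.71e-08. Stellate markers were called 2 each way of 10, cholangiocyte markers were lower for 4 of 8, and B cell markers were higher for 2 and lower for 5 of 7. Neutrophil markers were higher for 1 of 4, adipocyte markers 1 each way of 3, and erythroid markers lower for 1 of 7. The 6 pancreatic acinar markers did not pass, with sums of 0.664 to 529 CPM in CAST/EiJ and 3.6 to 563 CPM in C57BL/6J.

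Among called genes of at least 8 CPM on average over the 16 libraries and at least 1 CPM on average in each strain, with the same sign in both sexes and no clone name, the highest and lowest fold changes were often of genes with near copies in the genome, whose reads the counting may have divided. Rpl17, a ribosomal protein gene, averaged 178 CPM in CAST/EiJ and 5.59 CPM in C57BL/6J, while its pseudogene Rpl17-ps8 averaged 1.05 CPM in CAST/EiJ and 152 CPM in C57BL/6J. Added together they gave 179 ± 19.7 CPM in CAST/EiJ and 157 ± 24.1 CPM in C57BL/6J (SD, n = 8 each). Rpl9 averaged 149 CPM in CAST/EiJ and 6.22 CPM in C57BL/6J and Rpl9-ps6 0.0464 CPM in CAST/EiJ and 128 CPM in C57BL/6J, with a sum of 149.5 ± 20.6 CPM in CAST/EiJ and 134 ± 13.9 CPM in C57BL/6J. Rps12 averaged 79.7 CPM in CAST/EiJ and 3.48 CPM in C57BL/6J and Rps12-ps3 2.95 CPM in CAST/EiJ and 61.3 CPM in C57BL/6J, with a sum of 82.7 ± 15 CPM in CAST/EiJ and 64.8 ± 11.1 CPM in C57BL/6J. The anion transporter relatives Slc22a28 and Slc22a30 also differed in opposite directions. Slc22a28 averaged 148 CPM in CAST/EiJ and 11.6 CPM in C57BL/6J, and Slc22a30 1.74 CPM in CAST/EiJ and 167 CPM in C57BL/6J. Their sum was 149.7 ± 76.6 CPM in CAST/EiJ and 179 ± 61.8 CPM in C57BL/6J, with both sexes pooled. Slc22a28 was higher in males, at 60.4 to 90.7 CPM in CAST/EiJ females against 206 to 230 CPM in CAST/EiJ males. In C57BL/6J it lay at 0.609 to 1.69 CPM in females against 13.9 to 36 CPM in males. Slc22a30 lay at 102 to 171 CPM in C57BL/6J females and 154 to 274 CPM in C57BL/6J males. Serpina1a, an alpha-1 antitrypsin gene, averaged 107 CPM in CAST/EiJ and 3341 CPM in C57BL/6J, but the 5 Serpina1 genes together gave 17516 ± 4811 CPM in CAST/EiJ and 17956 ± 4985 CPM in C57BL/6J. In these 4 pairs and the Serpina1 family the ranges of the sums overlapped between strains, and values of the single copies are uncertain. In both strains the SD of the Serpina1 sum exceeded the C57BL/6J mean of Serpina1a. The overlap of that sum therefore cannot show where Serpina1a reads were placed, which was not tested. Sums over 2 other families stayed apart. The 3 Tmem254 genes together gave 17.7 ± 4.02 CPM in CAST/EiJ and 191 ± 45.4 CPM in C57BL/6J, and the 2 Apol9 genes 0.564 ± 0.399 CPM in CAST/EiJ and 125 ± 19.9 CPM in C57BL/6J, each with no overlap between strains.

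**Figure D5:**
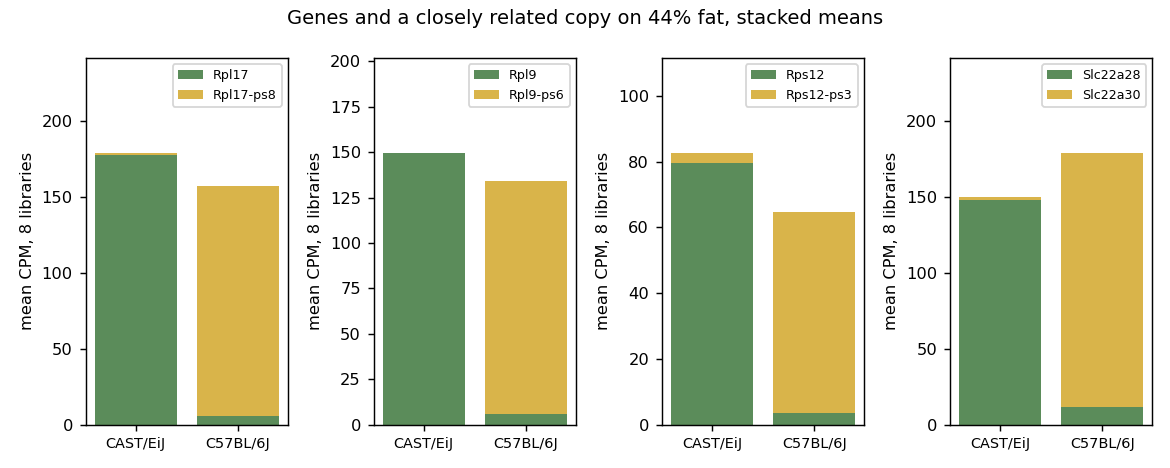
Mean CPM over the 8 libraries of each strain on 44% fat, stacked for a gene (green) and a closely related copy (yellow), CAST/EiJ left and C57BL/6J right. Rpl17 and Rpl17-ps8 sum to 179 CPM in CAST/EiJ and 157 CPM in C57BL/6J although each differs many-fold.

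Among the genes chosen this way, with the floor of 1 CPM on average in each strain, the lowest fold change was that of mt-Co2, a cytochrome c oxidase subunit encoded in the mitochondrion, at 5.55, 8.08 and 11.6 CPM in CAST/EiJ, against 1343, 2131 and 2603 CPM in C57BL/6J (log2 fold change −8.04, SE 0.17, adjusted p = 1.71e-16). The other 12 mitochondrial protein-coding genes had log2 fold changes of −0.15 to 0.87. How reads of CAST/EiJ, whose genome differs from the GRCm38 build, were placed is not given in the sources used here, and its part in these values was not tested. The other named genes with low fold changes were Cyp4a14, a fatty acid hydroxylase, Serpina7 (−6.15, adjusted p = 7.12e-08), thyroxine-binding globulin, the kinase Camk1d (−6.06, adjusted p = 2.79e-13), Inmt (−5.60, adjusted p = 6.71e-11), a methyltransferase, Tmem254c (−5.20, adjusted p = 1.23e-09) and the pantetheinase Vnn1 (−4.98, adjusted p = 1.7e-06). Camk1d lay at 1.06, 1.82 and 2.46 CPM in CAST/EiJ, against 73.4, 118 and 174 CPM in C57BL/6J, and Inmt at 4.22, 7.42 and 12.2 CPM in CAST/EiJ, against 258, 373 and 492 CPM in C57BL/6J. Neither overlapped. Cyp4a14 lay at 161 to 269 CPM in CAST/EiJ females against 1113 to 1487 CPM in C57BL/6J females, and 0.0791 to 0.365 CPM in CAST/EiJ males against 127 to 1246 CPM in C57BL/6J males. Its fold change over both sexes (−6.25, adjusted p = 0.00557) is an average of unlike values, and the strain effects differed between the sexes (females minus males, 9.27, adjusted p = 3.67e-05). Those with high fold changes were Sult3a1, a sulfotransferase, Mup8 (5.86, adjusted p = 1.63e-07), Mup7 (5.18, adjusted p = 0.0443) and Mup17 (4.57, adjusted p = 3.22e-05) of the major urinary proteins, Abhd1 (5.0, adjusted p = 1.79e-13) and Pus7l (4.58, adjusted p = 4.47e-09), a pseudouridine synthase-like gene. Sult3a1 lay at 1555, 1744 and 2080.3 CPM in CAST/EiJ, against 0, 0 and 81.9 CPM in C57BL/6J, with 5 C57BL/6J libraries at 0. The 19 Mup genes tested summed to 33136 ± 28122 CPM in CAST/EiJ and 15589.6 ± 13766 CPM in C57BL/6J, with both sexes pooled in each SD. Among them, Mup17 lay at 334 to 1912 CPM in CAST/EiJ females and 27560 to 28051 CPM in CAST/EiJ males. Mup20 lay at 37.3 to 865 CPM in C57BL/6J females and 6210 to 10944 CPM in C57BL/6J males. The strain effect also depended on sex for Vnn1 (adjusted p = 0.0346), Sult3a1 (adjusted p = 0.0279), Slc22a28 (adjusted p = 0.00226), Mup8 (adjusted p = 0.00192), Mup7 and Pus7l (adjusted p = 0.0012). Mup7 lost its call when any of 10 of the 16 libraries was left out, including each of the 4 C57BL/6J females.

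Some genes were at most 0.1 CPM in every CAST/EiJ library and at least 5 CPM in every C57BL/6J library. They numbered 6, of which 2 have clone names. Tmem254b held 0 counts over CAST/EiJ, a limit of 0.00957 CPM if 3 counts are taken as the bound, against 23651 counts in C57BL/6J. Fam213b likewise held 0 counts in CAST/EiJ, against 2472 in C57BL/6J. Apol9b, an interferon-inducible apolipoprotein L, held 14 counts in CAST/EiJ, against 25476 in C57BL/6J. Mup20, darcin, held 6 counts in CAST/EiJ, against 1368525 in C57BL/6J. The sum of the 19 Mup genes, Mup20 among them, overlapped between strains, at 4681 to 61464 CPM in CAST/EiJ and 1784 to 38888 CPM in C57BL/6J. Whether Mup20 reads were counted at other Mup genes was not tested. The reverse pattern held for 3 genes, all with clone names. These limits cover counting error only.

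The strain difference depended on sex for 403 of 15497 genes (2.6%; 1.23% positive, 1.37% negative), and DESeq2 called 813. Alas2, the erythroid form of the first enzyme of heme synthesis, lay at 17.9 to 28.3 CPM in CAST/EiJ females against 22.2 to 26.3 CPM in C57BL/6J females, and 16.9 to 17.5 CPM in CAST/EiJ males against 109 to 131 CPM in C57BL/6J males (difference of strain effects, females minus males, 2.68, adjusted p = 2.19e-07). Only the C57BL/6J males stood high. Slc39a4, a zinc transporter, lay at 18.7 to 22.6 CPM in CAST/EiJ females against 50.7 to 63.9 CPM in C57BL/6J females, and 42 to 57.5 CPM in CAST/EiJ males against 24.5 to 31.1 CPM in C57BL/6J males (−2.34, adjusted p = 4.11e-07). Its sex difference ran in opposite directions in the strains. Nlrp12, an innate immune regulator, lay at 0.102 to 0.438 CPM in CAST/EiJ females against 18.6 to 42.7 CPM in C57BL/6J females, and 23.1 to 37.1 CPM in CAST/EiJ males against 25 to 58.9 CPM in C57BL/6J males (−6.24, adjusted p = 1.36e-05). CAST/EiJ females were the low group. Trhde, which degrades thyrotropin-releasing hormone, had 3.11, adjusted p = 8.06e-06, Mup7 9.03, adjusted p = 8.62e-06, and the clone-named Gm43042 and Gm42887 −2.68, adjusted p = 9.8e-07 and −2.55, adjusted p = 8.06e-06. Xist, the X-inactivation transcript, had −4.52, adjusted p = 9.8e-07, a value set by male libraries at 2.26 to 3.17 CPM in CAST/EiJ and 0.0454 to 0.198 CPM in C57BL/6J. Within cholesterol synthesis edgeR called 0 of 22 for the sex interaction, with 2 at an unadjusted p under 0.05 and 0 by DESeq2. Females alone gave 14 lower cholesterol synthesis genes and males alone 19.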

How the data were processed

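Liver polyadenylated RNA was sequenced in pairs of reads, per the labels' protocols. The authors deposited expected counts for each gene, 20.3% of them not whole at a tolerance of 1e-06. A further deposited table of log2 variance-stabilized values served only as an alternative. Per the submitters' processing notes, reads were referred to GRCm38 and DESeq2 was among the tools. The aligner, the counter, and any use of strand or of strain genomes were not given in the sources used here. Every gene listed was above 0 in 24 libraries or more.

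Rounded counts were tested with edgeR 4.0.16 (R 4.3.3): filterByExpr over the 4 groups of strain and sex, TMM factors, and a robust quasi-likelihood fit with strain and sex to the 16 libraries (13 residual degrees of freedom). The interaction with diet used 31 libraries and 8 group means, and that with sex 16 libraries and 4 group means. The standard error of a fold change is its size over the square root of F. Alternatives included DESeq2 1.42.0, limma 3.58.1 on the deposited log2 values, other scalings and filters, single sexes, 3 runs of consecutive library identifiers, and leaving out each library. The code was tested on simulated data. The closest replicate pair had a chi-square of 29.2 on average over genes, so all libraries were kept as distinct.

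The gene lists and comparisons were chosen with earlier results of these data known. Values are named for called members of the 5 lists of sterol sensing, cholesterol and fatty acid synthesis, lipogenic regulators and desaturases, for 14 set genes, for up to 4 called members of each other list by p, for the 10 highest and 10 lowest fold changes among called genes with a mean of at least 8 CPM and of at least 1 CPM in each strain, the same sign in both sexes and no clone name, for genes off in 1 strain and for up to 8 genes of each interaction. Named outside that rule, after their values were seen, were Mvk, Ggps1, Scap, Acacb, Pgd, Tkt, Npc1, Mylip, Scarb1, Abcg5, Soat2, Cyp7a1, Cyp27a1, Col1a1, Col3a1, Plin3, Pnpla2, Isg15, Usp18, Apob, Gm20775, Rpl9-ps6 and Rps12-ps3. Some members counted in the lists are not reported here by name.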

Additional observations from a re-analysis of the deposited data

Results flagged for a closer look

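Among groups of 4 libraries, the highest or lowest library stood apart from the other 3 by Dixon's gap in 14 of 152 groups examined, where chance gives about 1 in 20. In C57BL/6J female replicate 1, Fasn was at 648 CPM, Elovl6 was at 96.6 CPM and the cell cycle sum at 157 CPM. Srebf1 was at 431 CPM in CAST/EiJ female replicate 1. Rpl17 was at 161 CPM and Rps12 at 64.2 CPM in CAST/EiJ male replicate 3. In CAST/EiJ female replicate 2, Vnn1 was at 15.1 CPM and the pancreatic acinar sum at 529 CPM. The acinar sum was 5.49 CPM in CAST/EiJ male replicate 1, and the macrophage sum 464 CPM in CAST/EiJ female replicate 4. Mup7 was at 11083 CPM and Pus7l at 0.671 CPM in C57BL/6J male replicate 3. Rpl17-ps8 was at 206 CPM and Rps12 at 5.07 CPM in C57BL/6J female replicate 2.

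The strain difference on 44% fat minus that on 10% fat passed the interaction test for Btnl9 (1.16 on the log2 scale), Tstd1 (−1.32), Tceal8 (−1.22), Mmd2 (−1.92), Tmem97 (−0.79) and Cyp17a1 (−1.8). The strain difference in females minus that in males passed for Alas2 (2.68), Slc39a4 (−2.34), Gm43042 (−2.68), Xist (−4.52), Trhde (3.11), Gm42887 (−2.55), Mup7 (9.03) and Nlrp12 (−6.24).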

How the results depend on the processing

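Under DESeq2, RLE size factors, no filter, a filter of 1 CPM in at least 8 libraries, all 47 libraries in the fit, 4 group means, no sex term, run as covariate and limma on the deposited values, the strain difference, the count of lower cholesterol synthesis genes and that of fatty acid synthesis each stayed within 1.5 times the values given. Within the 3 identifier runs, which are of unequal size, the strain difference on 44% fat counted 1165, 5511 and 3126 genes. Cholesterol synthesis had 7, 17 and 13 lower genes there, and fatty acid synthesis 1, 9 and 4. Females alone called 5369 genes. A test against a fold of at least 1.5 called 3175 genes, with 6 lower fatty acid synthesis genes. The Erlin1 log2 fold change turned negative in run 1 alone (−0.0039) and the Srebf1 log2 fold change in run 2 alone (−0.22); the cause was not tested. The diet interaction had 7 calls, 56 with DESeq2, 3 with all 47 libraries and 1 without the libraries of high Cpa1, and the sex interaction 403, 813 with DESeq2 and 634 with all 47 libraries. Leaving out each library gave 8303 to 8767 calls for the strain difference, 17 to 20 cholesterol and 10 to 11 fatty acid synthesis genes, 8037 to 8439 calls on 10% fat, 4 to 15 for the strain-by-diet interaction, and 264 to 537 for the strain-by-sex interaction on 44% fat. The diet interaction had 15 calls without C57BL/6J male 44% fat replicate 3, 12 without C57BL/6J female 44% fat replicate 1 or CAST/EiJ male 10% fat replicate 3, and 11 without CAST/EiJ female 10% fat replicate 2. It had 4 without any of C57BL/6J male 44% fat replicate 4, C57BL/6J male 10% fat replicate 2, C57BL/6J female 10% fat replicates 1 and 3, or CAST/EiJ male 10% fat replicate 1. The sex interaction had 264 without CAST/EiJ male replicate 2. No paired analysis was possible because the labels carry no replicate numbers, so the numbers used here follow accession order and only name samples.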
